A study of Mus musculus with 7 samples.

Results

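The genes described here are 32 genes by which endothelium, the cell layer that lines blood vessels, is recognised. They were taken from a list of endothelial genes, each with its 1 probe set annotated to a single gene symbol, and all 32 of the 32 listed were measured, among 19938 genes in all. They were read on whole-transcript arrays of 7 RNA samples of the retinal pigment epithelium (RPE), 4 of wild-type mice and 3 of Mfrp rd6 mice, all on the C57Bl/6J background. Mfrp encodes a membrane protein of the RPE, and rd6 is a recessive allele carried by the whole animal that leads to retinal degeneration. The age field of the labels gives 8 weeks for all wild-type and 12 weeks for all Mfrp rd6 samples, while the growth protocol gives 12 weeks to Mfrp rd6 replicate 1 alone. Age and genotype cannot be told apart under the first version. The labels do not say whether each replicate is a different set of animals. The p-values therefore reflect the spread among these 7 samples alone, and that spread may be technical.

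The RPE lies against the choriocapillaris, a dense bed of fenestrated capillaries in the choroid, and keeps that bed alive with vascular endothelial growth factor (VEGF) that it secretes towards it. Endothelial cells respond through the VEGF receptors and the angiopoietin receptor Tek, hold together through VE-cadherin and claudin junctions, and owe their identity to transcription factors of the ETS and SoxF families. Most of these genes are active in the vessels of every tissue, so the list marks endothelium and not the choroid in particular. Plvap is less general, since it forms the diaphragms of fenestrated capillaries and is kept low in the barrier vessels of the retina. It does not mark the choroid alone either. In the labelled protocol the RPE was shaken off the eyecup and spun down, and no step selects against other cells that come loose. In such bulk RNA, fewer cells of a type and less RNA per cell cannot be told apart.

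Most of the 32 endothelial transcripts were higher in Mfrp rd6, by less than 1 log2 unit. The median change of 40 further pan-endothelial genes, described below, was only 0.05. Of the 32 genes, 4 rose and 0 fell (limma, Benjamini-Hochberg adjusted p under 0.05 over all genes), namely the ETS factor Fli1, the progenitor and capillary sialomucin Cd34, the fenestral diaphragm protein Plvap and the angiopoietin receptor Tek. In either direction 2.15% of all 19938 genes were called. The share of the 32 called higher was 12.5%, against 1.34% of all genes, and the share called lower was 0 of 32, against 0.813%. The log2 change was above 0 in 30 of the 32 genes, as in 43.5% of all genes, and the median change was 0.33 against -0.02 over all genes. In 11 of 32 (34.4%) every Mfrp rd6 array lay above every wild-type array, as in 5.52% of all genes, and in 0 of 32 every one lay below, as in 9.82% of all genes. At an unadjusted p under 0.05, 18 of the 32 were higher, against 5.98% of all genes. Most single differences therefore did not pass once adjusted over the whole table. The list was chosen with earlier results of these data known, so the contrasts with all genes are descriptions and not tests.

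The values are log2 signals, and a sentence below gives either a level on that scale or a difference between group means. Array medians lay between 6.52 and 6.58, and 10 of the 32 genes had a mean below the lowest of them, a range where the summarisation of the probes compresses differences. RPE transcripts were abundant, since the 12 RPE markers averaged 11.50 to 11.62 on the 7 arrays. The 8 surface epithelium markers were almost as bright, with means of 10.81 to 11.16, so the samples were not RPE alone. Markers of other cells moved with genotype as well. Of 18 microglia and macrophage markers 14 rose and 0 fell, the largest changes being those of Tyrobp (3.18), C1qc (3.11), C1qb (3.09) and C1qa (2.90), and the list mean lay between 7.21 and 7.30 in wild type and between 8.69 and 9.24 in Mfrp rd6. Of 17 skeletal muscle markers 5 rose and 0 fell, led by Atp2a1 (2.21), Pvalb (2.18), Myh4 (1.84) and Casq1 (1.61), with list means of 6.69 to 7.76 in wild type and 7.79 to 8.69 in Mfrp rd6. Rod markers averaged 6.68 to 7.87 in wild type and 6.46 to 6.82 in Mfrp rd6, with 0 of 13 called. The part of these cells in the endothelial differences was not tested.

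**Figure D1:**
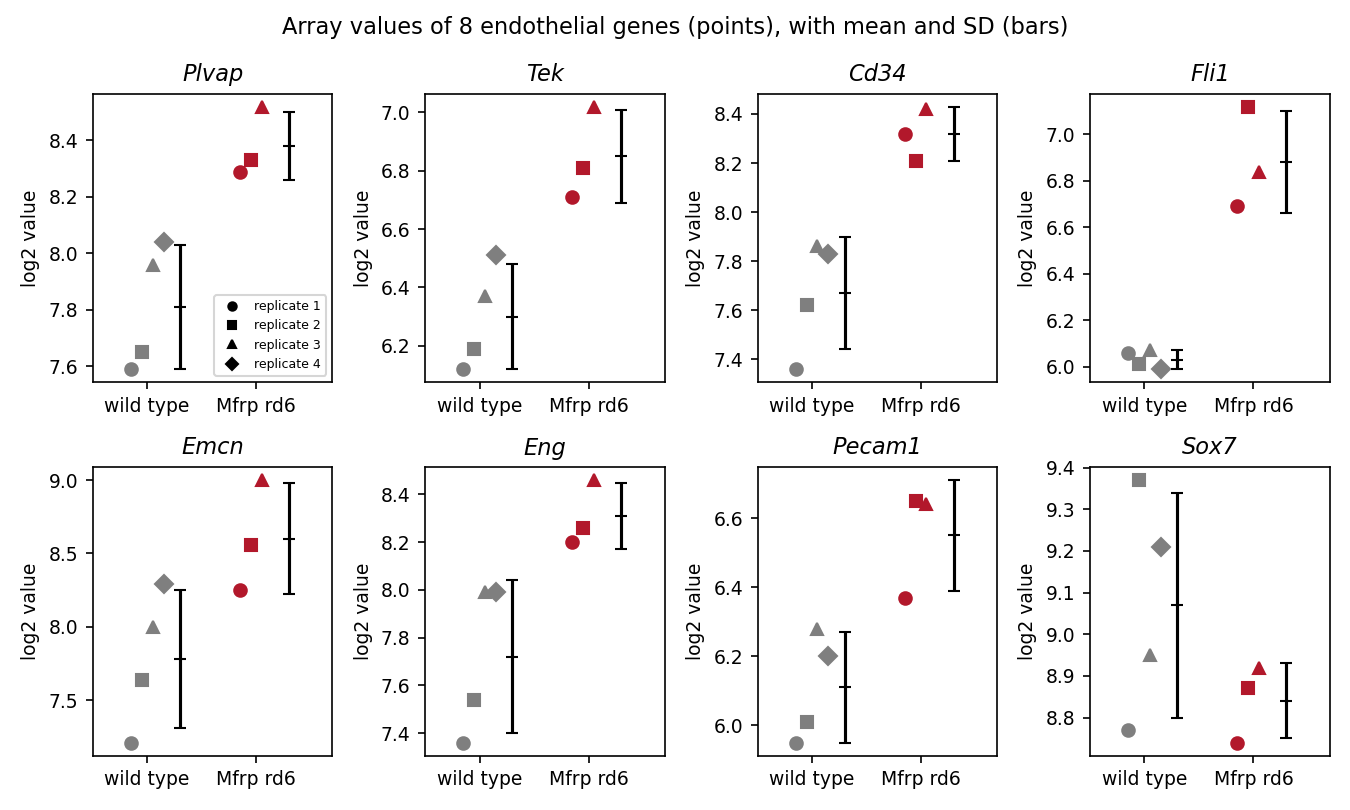
Log2 array values (vertical axis, a scale of its own for each gene) of 8 endothelial genes in wild type (grey, n = 4) and Mfrp rd6 (red, n = 3), with symbols for the replicate number and a bar for the mean ± SD. Plvap, Tek, Cd34, Fli1, Eng and Pecam1 do not overlap between the groups, Emcn overlaps (8.29 against 8.25), and Sox7 is the one gene shown with a lower Mfrp rd6 mean.

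Among the transcription factors, Fli1 rose and the other 4 did not pass. Fli1, an ETS factor of endothelium that blood cells also use, read 6.06, 6.01, 6.07 and 5.99 in wild-type replicates 1 to 4 and 6.69, 7.12 and 6.84 in Mfrp rd6 replicates 1 to 3. The wild-type arrays were nearly equal, and the gap to the lowest Mfrp rd6 array was 0.62. The rise from 6.03 ± 0.04 (SD, n = 4) to 6.88 ± 0.22 (SD, n = 3) was 0.85 on the log2 scale or 1.80-fold (SE 0.10, limma adjusted p = 0.00214), the largest change of the 32 genes. Its highest array was Mfrp rd6 replicate 2, which also had the highest microglia and macrophage mean (9.24), whereas the mean of all 32 endothelial genes was highest in replicate 3. The part of blood-derived cells in the Fli1 signal was not tested. Erg, the ETS factor that is held more closely to endothelium among vascular cells, read 5.91, 5.68, 5.88 and 5.76 in wild type and 5.93, 5.92 and 5.98 in Mfrp rd6. Its groups did not overlap, but by 0.01 only, and the difference of 0.14 did not pass (adjusted p = 0.447).

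The SoxF factors Sox7, Sox17 and Sox18 act together in vessel development. None of them passed with all arrays used, and differences among them were not tested. Sox18 read 6.90, 6.78, 7.32 and 7.04 in wild type against 7.31, 7.55 and 7.53 in Mfrp rd6. Wild-type replicate 3 reached the lowest Mfrp rd6 array, and the difference of 0.45 (SE 0.13) had an adjusted p of 0.118. Sox18 passed in 1 alternative, that without wild-type replicate 3 (0.56, adjusted p = 0.0354). Sox17, a factor of arterial endothelium, spread over 5.03 to 5.46 in wild type and 5.34 to 5.44 in Mfrp rd6, and the difference was 0.09 (adjusted p = 0.765). All its arrays lay below the lowest array median of 6.52. Sox7 went the other way, with 8.77, 9.37, 8.95 and 9.21 in wild type and 8.74, 8.87 and 8.92 in Mfrp rd6. Its difference of -0.23 (95% confidence interval -0.53 to 0.07) did not pass (adjusted p = 0.46), and the lowest wild-type array lay within the Mfrp rd6 range.

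All 6 genes of the VEGF and Tie receptor group had a positive change, with a median of 0.39, and 1 of them rose. Tek, the receptor through which angiopoietins steady mature vessels, read 6.12, 6.19, 6.37 and 6.51 in wild type and 6.71, 6.81 and 7.02 in Mfrp rd6. The groups were apart by 0.20. Tek rose by 0.55 or 1.46-fold (SE 0.11, 95% confidence interval 0.30 to 0.80, adjusted p = 0.0389). Its partner Tie1, an orphan receptor that forms complexes with Tek, read 6.90, 6.98, 7.32 and 7.24 in wild type and 7.36, 7.30 and 7.81 in Mfrp rd6, so that replicate 3 stood clear of the wild-type arrays and the other two lay close to the highest of them. The difference of 0.38 did not pass (adjusted p = 0.239). Ptprb, the phosphatase that restrains Tek and VE-cadherin, read 7.21, 7.28, 7.81 and 7.88 in wild type and 7.86, 7.97 and 8.09 in Mfrp rd6. Wild-type replicates 3 and 4 lay close to the Mfrp rd6 arrays and replicates 1 and 2 well below them, and the difference of 0.43 had an adjusted p of 0.25.

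None of the 3 VEGF receptors passed. Kdr, the main signalling receptor for VEGF, read 6.29, 6.73, 7.06 and 6.88 in wild type and 6.92, 7.0 and 7.52 in Mfrp rd6, a difference of 0.41 with overlapping groups (95% confidence interval -0.02 to 0.83, adjusted p = 0.352). The Kdr difference was 0.22 without Mfrp rd6 replicate 3 and 0.26 without wild-type replicate 1. Flt1, a VEGF receptor that largely acts as a decoy, read 8.33, 8.36, 8.51 and 8.51 in wild type and 8.40, 8.93 and 8.59 in Mfrp rd6. Like Fli1 it was highest in Mfrp rd6 replicate 2, and its difference of 0.21 (adjusted p = 0.444) was 0.07 without that array and 0.33 without replicate 1. Flt4, the receptor for VEGF-C that lymphatic and fenestrated vessels carry, spread over 5.96 to 6.53 in wild type and 6.37 to 6.73 in Mfrp rd6, a difference of 0.34 (adjusted p = 0.26). The VEGF receptors thus shared the direction of Tek with wider spread or smaller differences.

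The 6 junction and adhesion genes had positive changes as well, with a median of 0.34, and 0 of them passed. In 4 of the 6 every Mfrp rd6 array lay above every wild-type array, as in 5.52% of all genes. Pecam1, the platelet and endothelial adhesion molecule CD31, read 5.95, 6.01, 6.28 and 6.20 in wild type and 6.37, 6.65 and 6.64 in Mfrp rd6. The difference of 0.44 (SE 0.11) came nearest to passing (adjusted p = 0.0712), with the groups apart by 0.09. Esam, an adhesion molecule of endothelial tight junctions, read 6.25, 6.23, 6.70 and 6.55 in wild type and 6.73, 6.73 and 7.14 in Mfrp rd6 (difference 0.43, adjusted p = 0.181). Cdh5, VE-cadherin, the adhesive core of the adherens junction, read 6.79, 7.16, 7.38 and 7.44 in wild type and 7.45, 7.51 and 7.66 in Mfrp rd6. Its groups were apart by only 0.01. The difference of 0.35 (adjusted p = 0.286) was 0.21 without wild-type replicate 1, the lowest array. Cldn5, the claudin of endothelial tight junctions, read 7.02, 6.89, 7.06 and 7.12 in wild type and 7.27, 7.19 and 7.59 in Mfrp rd6, with a difference of 0.33 (adjusted p = 0.168). For Icam2, a leukocyte ligand on resting endothelium, the highest wild-type array (6.07) lay above both of the lower Mfrp rd6 arrays (5.92 and 5.89), and the difference was 0.17. Rasip1, a Ras and Rap effector needed for the vessel lumen, differed by 0.14, from 5.76 to 6.24 in wild type to 5.95 to 6.45 in Mfrp rd6.

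The remaining surface proteins and receptors held both other risers. Plvap read 7.59, 7.65, 7.96 and 8.04 in wild type and 8.29, 8.33 and 8.52 in Mfrp rd6, so that the groups were apart by 0.25. The rise from 7.81 ± 0.22 (SD, n = 4) to 8.38 ± 0.12 (SD, n = 3) was 0.57 or 1.48-fold (SE 0.12, adjusted p = 0.0458). Cd34 read 7.36, 7.62, 7.86 and 7.83 in wild type and 8.32, 8.21 and 8.42 in Mfrp rd6, apart by 0.35. Cd34 rose by 0.65 or 1.57-fold (SE 0.12, adjusted p = 0.0268). Cd34 is also carried by blood progenitors and by some stromal cells, whose part in its signal was not tested.

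Emcn and Eng showed larger differences than Tek without passing. Emcn, endomucin, a sialomucin of capillaries and veins, read 7.21, 7.64, 8.0 and 8.29 in wild type and 8.25, 8.56 and 9.0 in Mfrp rd6. It had the second largest difference of the 32 genes, 0.82 or 1.76-fold, but spread over more than 1 log2 unit in wild type, and the highest wild-type array passed the lowest Mfrp rd6 array (SE 0.25, adjusted p = 0.149). Eng, endoglin, a co-receptor for BMP ligands, read 7.36, 7.54, 7.99 and 7.99 in wild type and 8.20, 8.26 and 8.46 in Mfrp rd6, with no overlap and a difference of 0.59 (SE 0.16, adjusted p = 0.107). Robo4, a receptor that steadies the endothelial barrier, was the steadier gene, with 6.59, 6.27, 6.48 and 6.40 in wild type and 6.73, 6.77 and 6.89 in Mfrp rd6 (difference 0.36, SE 0.09, adjusted p = 0.0781). Robo4 passed with array weights (0.36, adjusted p = 0.0332). S1pr1, the sphingosine-1-phosphate receptor that supports the barrier, read 6.22 to 6.69 in wild type and 6.61 to 6.85 in Mfrp rd6 (difference 0.29, adjusted p = 0.322).

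The other surface genes had differences close to 0. Aplnr, the apelin receptor of sprouting and venous endothelium, differed by 0.07 (95% confidence interval -0.25 to 0.38). Gpihbp1, which carries lipoprotein lipase to the capillary lumen, differed by 0.05 (95% confidence interval -0.30 to 0.40), with its highest array in wild-type replicate 1 (7.23). Clec14a, a C-type lectin of vessels, differed by -0.02 (95% confidence interval -0.35 to 0.32). These intervals still hold the median change of the list for Aplnr and Gpihbp1, so the arrays do not separate a change of that size from none.

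Among the secreted products and Nos3 the median change was 0.09 and 0 of 6 passed. Mmrn2, a matrix protein of vessels that binds Clec14a, read 6.71, 6.59, 6.80 and 6.91 in wild type and 6.91, 6.94 and 7.42 in Mfrp rd6 (difference 0.34, adjusted p = 0.248). Egfl7, a matrix protein that endothelium secretes during sprouting, read 7.45, 7.33, 7.71 and 7.60 against 7.68, 7.67 and 8.05 (difference 0.28, adjusted p = 0.307). In both genes Mfrp rd6 replicate 3 stood above the other two. Vwf, the clotting protein stored in endothelial granules and in platelets, differed by 0.09, Nos3, the endothelial nitric oxide synthase, by 0.08, Apln, the apelin ligand, by 0.06, and Esm1, a proteoglycan of tip cells, by 0.02, each with overlapping groups and an adjusted p of at least 0.776. In each of them the wild-type range covered most of the Mfrp rd6 range.

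**Figure D2:**
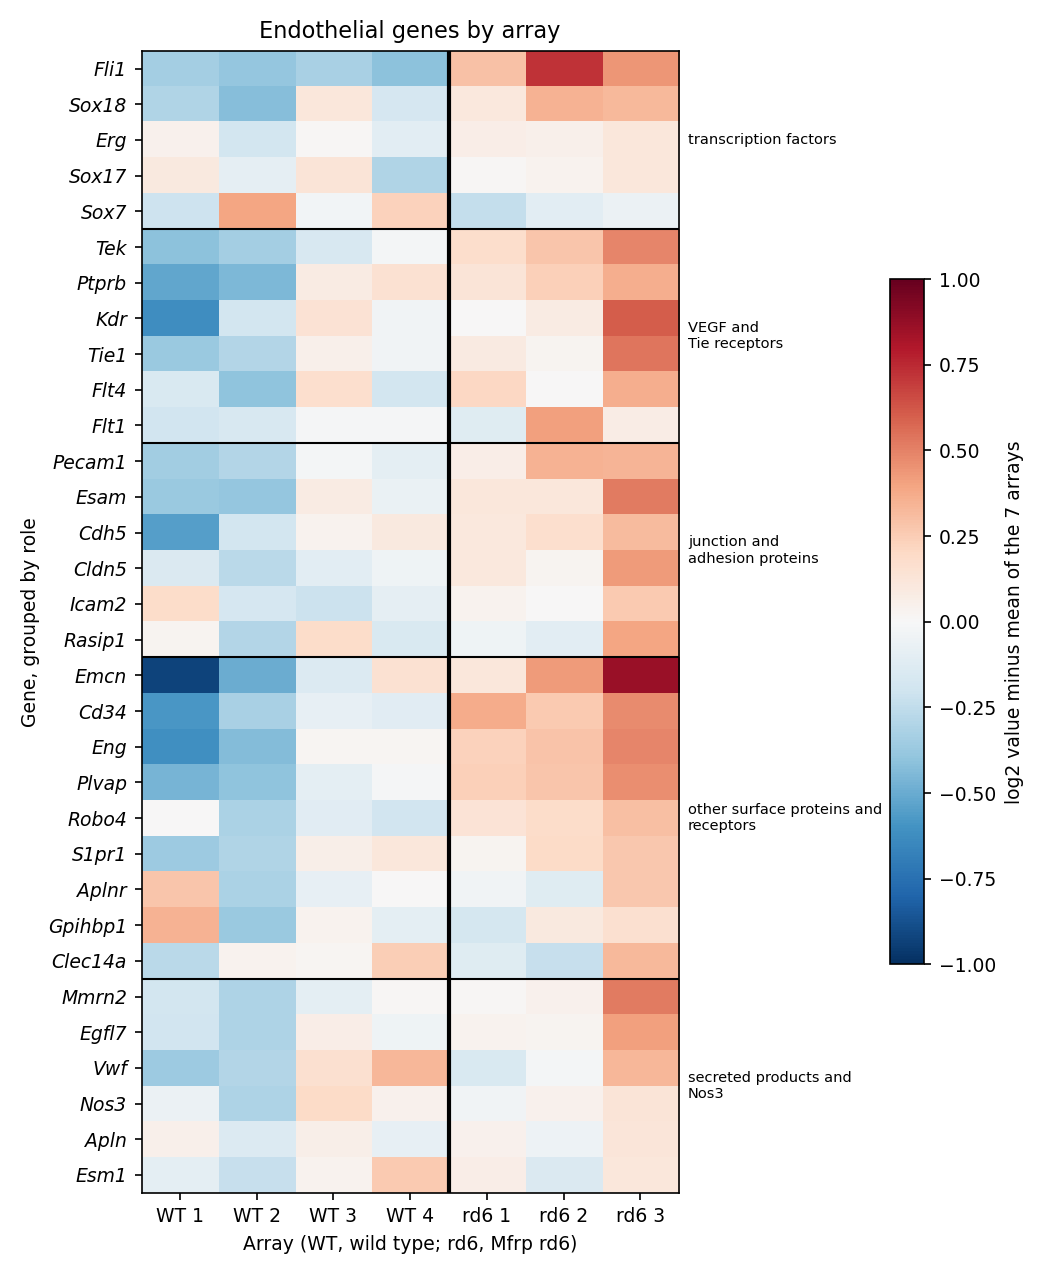
Log2 value of each of the 32 genes (rows, grouped by role) on each of the 7 arrays (columns), minus that gene's mean over the arrays (colour, red above and blue below). Wild-type replicates 1 and 2 are blue in most rows, and Mfrp rd6 replicate 3 is the reddest column, being the highest Mfrp rd6 array in 28 of 32 genes.

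The genes varied together from array to array inside each group as well. In 20 of the 32 genes (62.5%) both wild-type replicates 3 and 4 lay above both replicates 1 and 2, as in 13.3% of all genes. Mfrp rd6 replicate 3 was the highest of its group in 28 of 32 genes (87.5%), as in 38.2% of all genes, and was the lowest in 0 of 32. The 4 exceptions were Fli1, Flt1, Sox18 and Pecam1, each highest in replicate 2. The mean of the 32 genes read 6.69, 6.66, 6.93 and 6.91 in wild type and 6.99, 7.05 and 7.27 in Mfrp rd6, a difference of 0.30. The step from wild-type replicates 1 and 2 to replicates 3 and 4 was thus similar in size to the difference between the groups, and the lowest Mfrp rd6 array lay only slightly above wild-type replicate 3.

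The order of the arrays differed from that of the muscle and microglia markers within Mfrp rd6, but not at the top within wild type. Within Mfrp rd6, the skeletal muscle mean was 8.41, 8.69 and 7.79 and the microglia and macrophage mean 8.81, 9.24 and 8.69 in replicates 1 to 3, so that replicate 3, the highest in endothelial transcripts, was the lowest in both. Within wild type, the skeletal muscle mean was 6.69, 6.76, 7.76 and 6.88 and the microglia and macrophage mean 7.21, 7.21, 7.30 and 7.23 in replicates 1 to 4, so that replicate 3 came first and replicate 4 next in both, as in the endothelial mean. The rod mean was 7.07, 7.12, 7.87 and 6.68, with replicate 3 highest and replicate 4 lowest. With both wild-type replicate 3 and Mfrp rd6 replicate 2 left out, the endothelial mean difference was 0.37 and 1 of the 32 genes, Fli1, passed. Without Mfrp rd6 replicate 1, which compares equal ages under the growth protocol, the mean difference was 0.36 and again Fli1 alone passed.

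**Figure D3:**
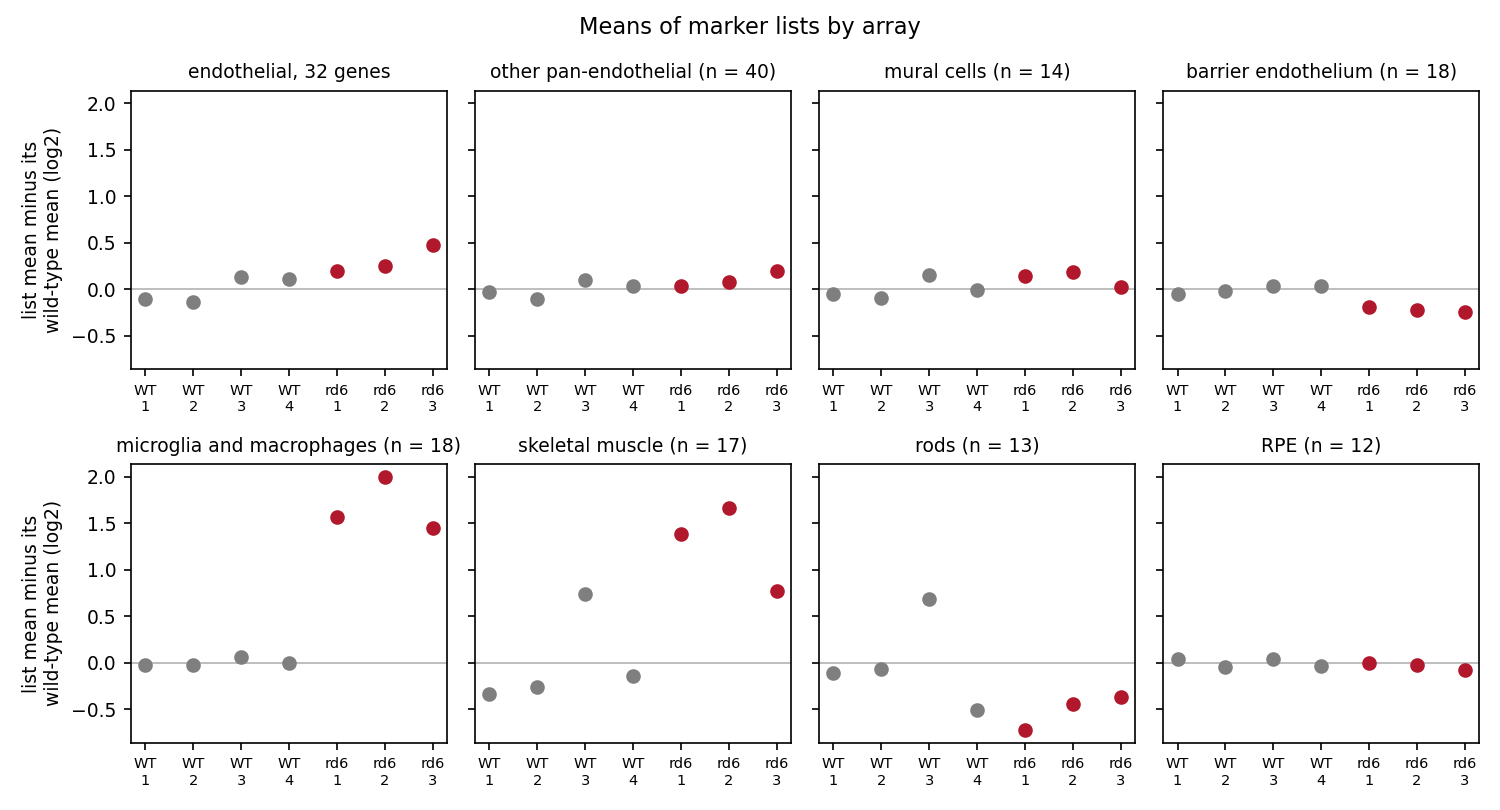
Mean log2 value of 8 marker lists on each array, minus that list's wild-type mean (vertical axis, log2), for wild type (grey) and Mfrp rd6 (red). The 32 endothelial genes step up within wild type and peak in Mfrp rd6 replicate 3, whereas the microglia and muscle lists peak in Mfrp rd6 replicate 2 and the RPE list stays between 11.50 and 11.62.

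The 4 risers depended on single arrays to different degrees. Fli1 passed in all 16 alternatives in which it was tested, with a change of 0.73 to 0.95. It was too dim to be tested among genes above the median gene. Its wild-type mean of 6.03 lay below the lowest array median of 6.52, in the compressed range. Cd34 passed in 11 of 17 (0.55 to 0.77), Plvap in 8 of 17 (0.45 to 0.65) and Tek in 6 of 16 (0.43 to 0.62). The count of called genes was 1 without wild-type replicate 2 or any 1 of the Mfrp rd6 arrays, Fli1 in each case, and 2 without wild-type replicate 1, 3 without replicate 3 and 4 without replicate 4. When arrays were left out 1 at a time, in 7 fits, Plvap and Tek passed only where wild-type replicate 4 was the array removed. Cd34 lost its call with wild-type replicate 2 removed (0.63, adjusted p = 0.0684), and also with any 1 of the Mfrp rd6 arrays removed (adjusted p = 0.0921, 0.0585 and 0.0964 for replicates 1 to 3).

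**Figure D4:**
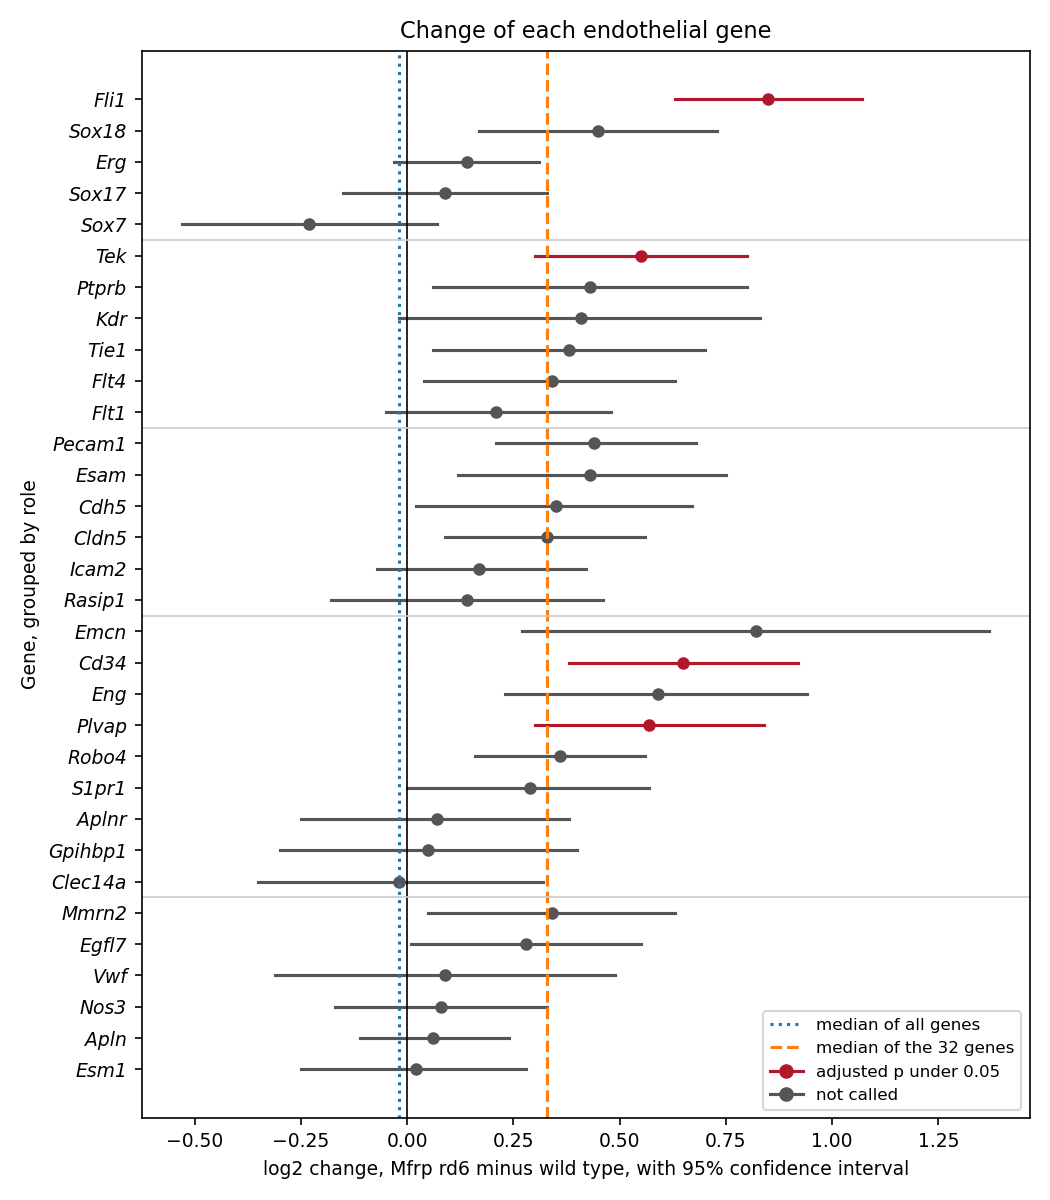
Log2 change of each of the 32 genes, Mfrp rd6 minus wild type (horizontal axis), with its 95% confidence interval from limma, grouped by role, with called genes in red. Most points lie to the right of the median of all genes (dotted line, -0.02), around the median of the list (dashed line, 0.33), and the 4 called genes lie between 0.55 and 0.85.

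Promoter sequences are shown for the called genes with an entry in the RefSeq table (Tek and Cd34), for Robo4, which came closest to passing among the others with an entry, and for Emcn, which had the largest difference without passing. Each is the 250 bases before the annotated start, 5′ to 3′ on the strand of the gene (GRCm38.p6), and all 4 genes lie on the plus strand. Capitals mark the ETS motifs AGGAAG and CCGGAA on either strand, ETS being the family of Fli1 and Erg. Other ETS sequences, such as the shorter GGAA, were not marked.
Tek, chr4:94739039-94739288: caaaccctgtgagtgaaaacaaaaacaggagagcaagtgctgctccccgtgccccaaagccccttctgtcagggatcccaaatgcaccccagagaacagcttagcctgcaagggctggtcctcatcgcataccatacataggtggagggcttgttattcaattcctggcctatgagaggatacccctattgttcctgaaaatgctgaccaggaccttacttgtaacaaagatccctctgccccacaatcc
Cd34, chr1:194938571-194938820: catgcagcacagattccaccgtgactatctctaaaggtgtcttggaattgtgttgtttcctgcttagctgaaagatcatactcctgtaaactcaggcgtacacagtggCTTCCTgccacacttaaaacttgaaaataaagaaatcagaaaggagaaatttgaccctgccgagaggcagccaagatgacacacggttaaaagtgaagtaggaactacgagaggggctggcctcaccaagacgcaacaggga
Robo4, chr9:37401722-37401971: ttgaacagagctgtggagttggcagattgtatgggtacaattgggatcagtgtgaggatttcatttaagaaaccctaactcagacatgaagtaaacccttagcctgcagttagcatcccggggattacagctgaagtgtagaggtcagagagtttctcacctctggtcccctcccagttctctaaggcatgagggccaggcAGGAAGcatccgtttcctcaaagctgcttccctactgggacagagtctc
Emcn, chr3:137340828-137341077: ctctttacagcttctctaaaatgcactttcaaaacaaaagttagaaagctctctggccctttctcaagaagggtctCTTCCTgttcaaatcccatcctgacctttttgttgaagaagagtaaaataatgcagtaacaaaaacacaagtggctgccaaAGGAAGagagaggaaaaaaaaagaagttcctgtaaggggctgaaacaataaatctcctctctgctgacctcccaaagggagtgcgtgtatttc

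Of the 32 genes, 16 had an entry, with 20 promoters between them, since Egfl7 and Erg have 3 each. AGGAAG was found in 11 of the 20 (55.0%) and in 29.5% of all 32851 promoters of the same length in the table. CCGGAA was found in 1 of 20, that of Kdr, against 12.0% of all promoters. The SOX cores ACAATG (1 of 20, against 10.7%) and ACAAAG (4 of 20, against 16.5%), the GATA core AGATAA (1 of 20, against 9.99%) and the TATA box TATAAA (2 of 20, against 12.4%) were counted in the same way, on both strands. The promoter of Tek, a called gene, held neither AGGAAG nor CCGGAA in this window, while that of Emcn, which did not pass, held AGGAAG in 2 places. Shorter ETS sequences such as GGAA were not counted, so their absence from Tek is not shown. These letter matches describe the sequences and are neither binding sites nor causes.

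The ligands that act on these receptors showed no common direction. Of 11 VEGF and angiopoietin ligands and co-receptors 0 rose and 1 fell, with a median change of 0.10. Nrp2, a co-receptor for VEGF-C and semaphorins, read 7.48, 7.42, 7.74 and 7.61 in wild type and 7.17, 7.19 and 7.02 in Mfrp rd6 and fell by 0.44 on the log2 scale (adjusted p = 0.0449). Vegfa, the ligand by which the RPE maintains the choriocapillaris, averaged 10.57 in wild type and 10.46 in Mfrp rd6 (adjusted p = 0.63). Of 35 further genes in the pathways of the receptors and junctions, 1 rose and 2 fell, with a median of 0.00. Heg1, a membrane partner of the junctional CCM complex, rose by 0.55 (adjusted p = 0.0324), the receptor partner Ramp2 fell by 1.60 on the log2 scale (adjusted p = 0.000152) and Slit2, a guidance ligand, fell by 0.39 (adjusted p = 0.0413). Ramp2 serves the adrenomedullin receptor in endothelium, but its arrays, between 9.39 and 9.93 in wild type and between 8.02 and 8.18 in Mfrp rd6, moved opposite to the 32 genes. The cells that Ramp2 came from were not tested.

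Other endothelial genes had a smaller median change. Of 40 further pan-endothelial genes 1 rose and 1 fell. Their median change was 0.05, between the -0.02 of all genes and the 0.33 of the 32. The change was above 0 in 28 of the 40, against 43.5% of all genes. Some of the 40 were bright, such as Ly6e (12.95 in wild type) and Rhoj (10.53), and the cells behind these signals were not tested. In 7 of these 40 every Mfrp rd6 array lay above every wild-type array, as in 5.52% of all genes. The riser among the 40 was Ecscr, an endothelial cell-surface regulator of sprouting. It read 6.75, 6.50, 6.84 and 6.71 in wild type and 7.12, 7.51 and 7.61 in Mfrp rd6 (difference 0.71, adjusted p = 0.0196). Ehd4, an endocytic protein, fell by 0.38 (adjusted p = 0.028). The difference between the lists was not tested.

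Genes of barrier-forming endothelium, the kind that lines retinal vessels, changed in both directions. Of 18 genes 1 rose and 5 fell, and the median was -0.13. Those that fell were the lipid carrier Mfsd2a (by 1.15), the organic anion carriers Slco1c1 (by 1.13) and Slco1a4 (by 0.48), the lactate carrier Slc16a1 (by 0.54) and the amino acid carrier Slc7a5 (by 0.47), with adjusted p from 0.00114 to 0.0434, and the efflux pump Abcg2 rose by 0.43 (adjusted p = 0.014). Many of these carriers are also made by the RPE, so the list does not mark retinal vessels alone in these samples. Lymphatic endothelium showed no called gene among 4 (median 0.05). Its brightest gene Pdpn was at 11.88 ± 0.10 in wild type and 11.85 ± 0.08 in Mfrp rd6. Reln averaged 9.67 in wild type, but Prox1 (5.13) and Lyve1 (5.62) lay below the lowest array median of 6.52. The cells that Pdpn and Reln came from were not tested.

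Markers of the cells that accompany vessels differed little at the median. Of 14 mural cell genes 1 rose and 0 fell, with a median of -0.02, and their mean was 7.62 to 7.87 in wild type and 7.74 to 7.90 in Mfrp rd6. The riser was Kcnj8, a potassium channel subunit of pericytes and of muscle (0.66, adjusted p = 0.0318). Its channel partner Abcc9 differed by 0.50 (adjusted p = 0.0545) and the pericyte receptor Pdgfrb by -0.11. Rgs5 and Cspg4 differed by -0.46 and -0.24 without passing (adjusted p = 0.224 and 0.241). Of the 14 changes, 7 were positive and 7 negative. Des, a filament protein that skeletal muscle shares with mural cells, differed by 1.47 with overlapping groups (adjusted p = 0.0695). Fibroblast genes had a median of -0.21, with 0 of 9 higher and 1 lower, the matrix proteoglycan Dcn (by 0.92, adjusted p = 0.014). The 2 measured red blood cell genes and the 4 platelet genes had medians of -0.08 and -0.05 with 0 called, their brightest being Alas2 (-0.05) and Itga2b (0.01). Only 2 of 6 listed red blood cell genes were measured, and the part of blood cells in the signals of Vwf, Pecam1 and Fli1 was not tested. Schwann cell genes had a median of -0.07 with 0 of 4 called (brightest Pmp22, -0.05), and the rod list had a median of -0.57 (brightest Gnat1, -0.67, adjusted p = 0.402). Of 8 surface epithelium genes 0 rose and 1 fell (Dsg1b, by 0.67), and of 12 RPE genes 0 rose and 1 fell (Lrat, by 0.40), with medians of -0.11 and -0.05.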

How the data were processed

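The authors deposited 1 table of log2 values, made with Affymetrix Expression Console and RMA per the submitters' processing notes, for 35556 probe sets on 7 arrays (versions not given in the sources used). RMA subtracts background, equalises the arrays and summarises each probe set, and it compresses differences of dim ones. Gene names came from the (older) platform annotation. The probe set with the highest mean per gene was kept among 21789 with 1 symbol, which left 19938 genes. Each of the 32 genes had a single such probe set.

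All genes were fitted with limma 3.58.1 in R 4.3.3 (lmFit, eBayes) as Mfrp rd6 minus wild type, with no filter or block, and p-values were adjusted by Benjamini-Hochberg over all genes. No test was made over a list. The 32 genes and the 15 other lists were chosen with earlier results of these data known. Named were all 32 genes and, from every other list, up to 4 called genes or the brightest gene. Slc7a5, Abcg2, Vegfa, Abcc9, Pdgfrb, Des, Rgs5, Cspg4, Prox1, Lyve1, Reln, Ly6e and Rhoj were picked with their values known. The fit was first tested on simulated data. Alternatives were other scalings, filters on dim genes, other variance models, array weights, the replicate number as a block, leaving out arrays, and other treatments of the probe sets. Leaving out 2 arrays together was chosen after seeing the data. Python 3.11.15 was used for tables and figures, and the number of arrays limits the precision. Promoters are those of RefSeq.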

Additional observations from a re-analysis of the deposited data

How the results depend on the processing

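The mean difference of the 32 genes stayed positive in all 17 alternatives, between 0.22 (without Mfrp rd6 replicate 3) and 0.38 (genes above the median gene, which kept 13 of the 32). Not all of these could move it. The variance trend alters only the SE, and each gene had a single probe set, so the probe set treatments left it unchanged. The filters on dim genes only dropped members. The count of the 32 genes called higher was 4, and 1 to 4 when 1 array was left out. It was 2 among genes above the median gene, 1 with all probe sets tested and 1 with both wild-type replicate 3 and Mfrp rd6 replicate 2 left out. The count called lower was 0 in all 17. Of all genes 429 were called, and 211 to 325 when 1 array was left out, 718 with a variance trend and robust moderation, 679 with array weights, 167 with all probe sets tested and 193 without those 2 arrays together. Over all genes, same-numbered arrays did not deviate together (r = -0.30, -0.07 and 0.04 for replicates 1 to 3). With so few arrays these values cannot settle whether the numbers pair the samples, and the labels do not say. With the replicate number as a block 226 genes passed and 6 of the 32, with Emcn (0.99, adjusted p = 0.00167) and Eng (0.68, adjusted p = 0.0243) added. Wild-type replicate 4 has no Mfrp rd6 array of its number, so it adds nothing to the differences in that fit. The mean difference was 0.34 both there and without that array. With that array left out and no block, Emcn and Eng had the same changes and did not pass (limma adjusted p = 0.0863 and 0.089).

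Signs turned only in genes that did not pass. Clec14a was 0.06 with the replicate block and 0.10 without the 2 arrays together, and -0.19 to 0.09 when 1 array was left out. With array weights Vwf was -0.11 and Esm1 -0.12. When 1 array was left out the range was -0.05 to 0.22 for Vwf, -0.01 to 0.15 for Nos3, -0.02 to 0.23 for Rasip1, -0.07 to 0.17 for Gpihbp1, -0.06 to 0.11 for Esm1 and -0.05 to 0.17 for Aplnr. The causes were not tested.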
